A study of Mus musculus with 10 samples.

Results

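Genes for splicing factors and related RNA-binding proteins were followed in mouse regulatory T cells (Treg cells), the CD4+ T cells that restrain immune responses. The members are the table rows whose symbol begins with Snrp, U2af, Sf3a, Sf3b or Hnrnp, or with Rbm, Srsf, Prpf, Celf or Mbnl followed by a digit. Of 105 such rows, the X-linked genes Rbm3, Rbm10 and Mbnl3 were left out by name, which gave 102 genes and kept Hnrnph2 and Rbm41, which are also on the X chromosome, among the 13252 genes of the table. The members fall into 11 Snrp, 3 U2af, 8 Sf3, 13 Prpf, 11 Srsf, 18 Hnrnp, 32 Rbm, 4 Celf and 2 Mbnl genes. Members that averaged 10 or more normalized counts were tested, which were 96, and 6 lay below that level.

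Bulk RNA had been sequenced from Treg cells sorted by the reporters GFP and RFP into 2 populations, with 5 libraries each. The CD4+RFP+GFP+ cells are labelled Helios+, and the CD4+RFP+GFP- cells are labelled Helios-. Helios is the Ikaros family transcription factor encoded by Ikzf2. Strain, age, sex and any treatment of the mice are not given in the labels, nor is what RFP reports. The design text of the series speaks of a wild-type and a knockout Helios gene, whereas the labels of the samples describe sorted populations, so the groups are treated here as populations. The labels do not say whether the libraries of a group came from separate mice, so that p-values speak of the scatter among these libraries, and that scatter may be technical.

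An intron is removed by the spliceosome, which is assembled from small nuclear ribonucleoproteins (snRNPs) and many other proteins. The U1 snRNP binds the 5′ splice site, U2AF and the U2 snRNP with SF3A and SF3B bind near the 3′ splice site, and the U4, U5 and U6 snRNPs with the PRPF proteins complete the catalytic machine. SR proteins (Srsf genes), hnRNPs and the RBM, CELF and MBNL families bind the transcript itself and shift which exons are kept. In T cells such proteins are known for controlling isoforms of receptors such as CD45 and for controlling the stability of mRNAs.

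Depth and labels were examined first. The libraries held between 4872348 and 6948692 whole reads recovered from the deposited values. The share of the ribosomal precursor Rn45s ran from 8.54% to 18.6%. Ikzf2 stood at 487 ± 56.5 normalized counts in the Helios- libraries and 10367 ± 456 in the Helios+ libraries (SD, n = 5 each), with no overlap (exact permutation test, two-sided, p = 0.0079). Foxp3, the defining factor of Treg cells, stood at 3526 ± 226 and 3570.1 ± 201. Il2ra, the Treg marker with the highest counts, was higher in Helios+, at 3899.5 ± 269 and 4648 ± 397 (adjusted p = 0.0249, limma). Of 7 Treg genes, 2 were higher by limma, and 4 with the replicate block described below. Of 22 tested cell cycle genes, 13 were higher and 0 lower in Helios+ (limma), and 2 of 6 tested monocyte and macrophage genes, Cybb and Csf1r, were higher. With the block, 15 cell cycle genes and 3 monocyte and macrophage genes were higher. The summed level of the monocyte and macrophage list ranged from 405 to 611 in Helios- and from 740 to 1088 in Helios+. Lyz1 and Cd14 of the same list lay below the filter. Cybb had the highest counts of the list, at 231 ± 28.2 and 488 ± 43.5 normalized counts. Of 9 B cell genes, 8 had a change below 0 (median -0.27 on the log2 scale). Ebf1 was called lower in Helios+, and 4 genes were with the replicate block described below, while the sums of the list ranged from 1773 to 2515 and from 1492 to 2151. Both CD8 T cell genes had a change below 0, and neither was called by limma without the block and 1, Cd8b1, was lower with it. Neutrophil genes (3 tested) and 1 erythroid gene gave 0 calls by limma with or without the block, whereas Zbtb46 among 7 dendritic cell genes and Nkg7 among 6 NK cell genes were higher. The genes with the highest counts in the other marker lists, namely Cr2, H2-Ab1, Eomes, Cd8b1, S100a9 and Alas2, were not called by limma without the block. The part of these other genes in the results below was not tested. In bulk RNA, a smaller number of cells that express a gene and less RNA per cell cannot be told apart.

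Few members were called between the populations when the replicate number was left out of the fit, and the differences were small. A gene was called where the adjusted p of limma's moderated test over all 10718 tested genes was below 0.05. Of 96 tested members, 2 were higher in Helios+ (Celf2 and Rbm45) and 5 were lower (Rbm12, Rbm19, Rbm38, U2af2 and Prpf19). These 7 genes are 7.29% of the members tested, against 24.8% of all genes (14.1% called higher and 10.7% called lower). With the replicate number fitted as a block, as described below, 29 members were called (30.2%), against 37.3% of all genes. Whether these shares differ was not tested. The log2 change, Helios+ minus Helios-, ranged from -0.79 (Hnrnpa1) to 0.36 (Rbm45), and its size was under 0.5 for 94 of the 96 members. Without the block, the 95% confidence interval of the change stayed within 1.5-fold in either direction for 89 members (92.7%), against 62.8% of all genes. Larger changes thus lay outside that interval of nearly every member.

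The small changes leaned downwards. The share below 0 was near that of all genes at the highest and at the lowest counts, and above it between them. The change was below 0 in 64 of 96 members (66.7%) and in 53.0% of all genes, with medians of -0.07 and -0.02 on the log2 scale. Under quantile normalization the count was 56 members (58.3%), against 57.8% of all genes. Among genes with a mean of at least 1000 normalized counts, 73.0% of 37 members and 70.5% of 1202 genes were below 0, and the median was -0.10 for both. At means of 100 to 1000, 66.0% of 50 members and 55.3% of 5687 genes were below 0, with medians of -0.07 and -0.03. At means of 10 to 100 it was 44.4% of 9 members and 44.2% of 3829 genes. Whether these shares differ was not tested. The summed count of all members was 109105 ± 2429 in Helios- and 103575 ± 573 in Helios+. These sums did not overlap, as the lowest Helios- library held 105973 and the highest Helios+ library 104359. As a share of reads without Rn45s, the members took 2.07% ± 0.0566 and 2.05% ± 0.0259 (SD, n = 5 each), which overlap.

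**Figure D1:**
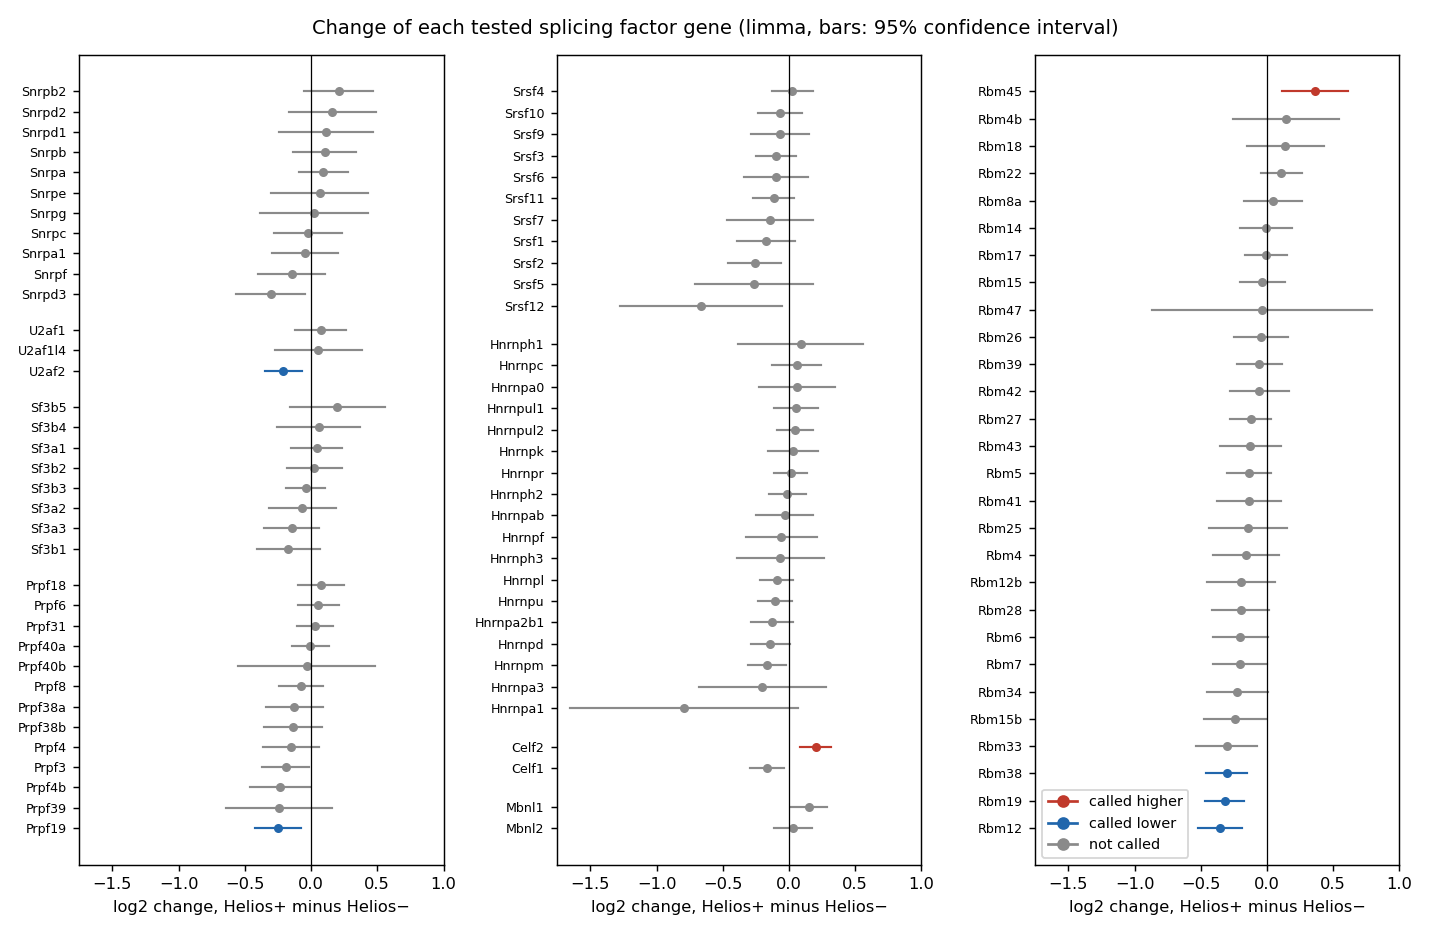
Log2 change (Helios+ minus Helios-) of the 96 tested members, grouped by family, with points for the limma estimate and bars for the 95% confidence interval. The 2 genes called higher are red, the 5 called lower are blue, and the widest intervals belong to low genes such as Hnrnpa1, Rbm47 and Srsf12.

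Libraries with the same replicate number deviated together across all genes. For replicates 4 and 5 the margin was narrow, at correlations (r) of 0.16 and 0.15 against up to 0.10 and 0.12 with other numbers. The number was also fitted as a block, which compares the libraries within each pair. With the block, 3 members were called higher and 26 lower, or 30.2% of the 96, against 37.3% of all genes (18.9% higher and 18.5% lower). These counts moved with the scaling and tool, to 8 higher and 17 lower with quantile normalization and to 3 and 16 with DESeq2, both with the block. All 7 members named above remained called in each of these fits. Of the 22 further members, 1 was higher (Mbnl1) and 21 were lower, and their changes lay between 0.10 and 0.31 in size on the log2 scale. Within pairs, 24 members were lower in Helios+ in 5 of 5 pairs (background 20.0% of all genes) and 5 members were higher in 5 of 5 (background 19.8%). The number of members called lower thus rests on the replicate block, and both values are given below wherever the call changes.

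Among the called members, 4 had groups that did not overlap: Celf2 was higher in every Helios+ library, and Rbm12, Rbm19 and Rbm38 were lower in every one. That is 4.17% of the 96, against 19.5% of all genes (11.2% higher and 8.37% lower).

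Core snRNP proteins come first. The Sm proteins encoded by Snrpb, Snrpd1, Snrpd2, Snrpd3, Snrpe, Snrpf and Snrpg form the ring around the snRNAs, Snrpa and Snrpc belong to the U1 snRNP, and Snrpa1 and Snrpb2 belong to the U2 snRNP. None of the 11 genes was called by limma without the block, and the changes ranged from -0.30 to 0.21. Snrpd3 was measured at 223, 255, 349.5, 243 and 287 normalized counts in Helios- replicates 1 to 5, and at 203, 187, 259, 235 and 209 in Helios+ replicates 1 to 5. Helios+ was lower in 5 of 5 pairs, but the groups overlapped, as Helios+ replicates 3 and 4 both exceeded Helios- replicate 1. Its log2 change was -0.30 ± 0.12 (SE), with an adjusted p of 0.0860 in limma and of 0.0057 with the block, where it alone among the Snrp genes was called. Snrpb2 went the other way, from 121, 155, 161, 149.6 and 199.5 to 162, 174, 170.1, 183 and 209.8. It was higher in 5 of 5 pairs and was not called (log2 change 0.21 ± 0.12, limma adjusted p = 0.2482, and 0.0769 with the block). Snrpf, with the highest counts of the class, stood at 462, 681, 783, 549 and 645 in Helios- and at 479.9, 564, 599, 558 and 578 in Helios+ (adjusted p = 0.4157, limma). Of its annotated exon bases, 85.4% overlap exons of other genes on the opposite strand, so its counts are uncertain.

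U2AF reads the end of the intron: U2af2 binds the polypyrimidine tract, and U2af1 the AG at the 3′ splice site. U2af2 was measured at 1020.3, 1162, 1172, 1199.6 and 1216 normalized counts in Helios- and at 1041, 1045, 968, 993 and 941 in Helios+. Helios- replicate 1 was low and lay within the Helios+ range, and 4 of 5 pairs were lower in Helios+. The means were 1154 ± 77.7 and 998 ± 45.3 (SD, n = 5 each), with a log2 change of -0.21 ± 0.06 (SE) and an adjusted p of 0.0276 in limma. The call was kept in 4 of 10 fits that left out 1 library. Leaving out replicate 2, 4 or 5 of Helios-, or 3, 4 or 5 of Helios+, ended it (adjusted p of 0.0575 to 0.0766), and also under quantile normalization (0.0811). U2af1, at 286 ± 33.9 and 299.6 ± 15.5, was not called (log2 change 0.07 ± 0.09, limma adjusted p = 0.6151). Its libraries read 233, 314, 315, 275 and 294 in Helios- and 309, 304, 315, 293 and 276 in Helios+, which overlap fully. The related U2af1l4 stood at 144, 103, 73.2, 88.9 and 86.6 in Helios- and at 97.5, 98.7, 91.4, 113 and 102 in Helios+, and 66.1% of its exon bases lie in exons of other genes.

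SF3A and SF3B hold the U2 snRNP at the branch point. The 8 genes gave 0 calls in limma, at changes of -0.17 to 0.20. Sf3b1, the subunit that clamps the branch point, was measured at 4656, 3659, 2806, 3709 and 3309 in Helios- and at 3455, 3355, 2832, 3293 and 2994 in Helios+. Replicate 1 was highest and replicate 3 lowest in both populations. Its log2 change was -0.17 ± 0.11 (SE), with an adjusted p of 0.2929 in limma and 0.0114 with the block. Sf3b2 was the most abundant member of the class. It ran in the opposite order, with 2839, 3521, 4459.6, 3573 and 3735 in Helios- and 3381, 3664, 3937, 3615 and 3662 in Helios+ (log2 change 0.02 ± 0.10, limma adjusted p = 0.8937). Sf3a3 gave 449, 526, 651, 469 and 549.9 in Helios- and 477, 467, 522, 422 and 484 in Helios+, with an adjusted p of 0.2996. Sf3b5, a small subunit, gave 69.1, 64.6, 119, 95.8 and 98.3 in Helios- and 78.6, 112, 112, 101 and 101 in Helios+, with an adjusted p of 0.4363. Neither was called with the block.

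PRPF proteins act in the U4/U6.U5 tri-snRNP and in the activated spliceosome. Prpf19, the ubiquitin ligase of the complex that activates the spliceosome, was the 1 gene of 13 that limma called without the block. It was measured at 295, 365, 377, 353 and 320.2 in Helios- and at 266, 295, 292, 297 and 280.5 in Helios+. Helios- replicate 1 lay among the Helios+ values, and Helios+ was lower in 5 of 5 pairs. Means were 342 ± 33.7 and 286 ± 13.0 (SD, n = 5 each), with a log2 change of -0.25 ± 0.08 (SE) and an adjusted p of 0.0331 in limma. The call was kept in 3 of 10 fits that left out 1 library. Leaving out replicate 2, 3 or 4 of Helios-, or 1, 2, 3 or 5 of Helios+, ended it at adjusted p-values of up to 0.0850.

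With the block, 4 more PRPF genes were lower: Prpf4b, Prpf3, Prpf38b and Prpf39. Prpf4b, a kinase of the tri-snRNP, gave 2825, 2232, 1836, 2186 and 1957 in Helios- and 2097, 1926, 1702, 1943 and 1641 in Helios+. It was lower in 5 of 5 pairs (log2 change -0.24 ± 0.11, limma adjusted p = 0.1247, and 0.0005 with the block). Prpf3, a U4/U6 protein, gave 435, 373, 312, 362 and 379.6 in Helios- and 336, 325, 311, 333 and 315 in Helios+. Here too every pair was lower (log2 change -0.19 ± 0.08, limma adjusted p = 0.1138, and 0.0326 with the block). Prpf8, the scaffold of the catalytic centre and the most abundant PRPF gene, stood at 3091, 3319, 4038, 3383 and 3516 in Helios- and at 3008, 3356, 3560.3, 3115 and 3401 in Helios+. It was called by neither fit (log2 change -0.07 ± 0.08, limma adjusted p = 0.5491). Prpf6, Prpf18 and Prpf31 had changes of 0.06, 0.07 and 0.03 and were not called either.

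SR proteins bind exonic enhancers and recruit U1 and U2AF. The change was below 0 for 10 of 11 Srsf genes, under each of the scalings tried, and the class median was -0.12 on the log2 scale. None of the 11 was called by limma without the block. Srsf2 was measured at 630.2, 546, 463, 516 and 478 in Helios- and at 507, 417, 414, 464 and 393 in Helios+. Helios+ was lower in 5 of 5 pairs, while the groups overlapped. The change was -0.26 ± 0.09 (SE), with an adjusted p of 0.0574 in limma and 0.0016 with the block. Of its exon bases, 25.3% overlap Mettl23 and Mfsd11 on the opposite strand. Srsf5 was lower in 4 of 5 pairs and was the other Srsf gene called with the block. Srsf1, the founding SR protein, gave 1718, 1329, 1053, 1221 and 1248 in Helios- and 1221, 1039.6, 1161, 1166 and 1164 in Helios+ (adjusted p = 0.2485 in limma and 0.0796 with the block). Srsf11, which had the highest counts of the class, gave 1687, 1454, 1338, 1522 and 1591 in Helios- and 1540.4, 1398, 1274, 1408 and 1373 in Helios+. It was lower in 5 of 5 pairs without being called (adjusted p = 0.2818 in limma and 0.0513 with the block). Srsf12, the lowest of the class, gave 14.1, 13.8, 26.2, 17.1 and 20.4 in Helios- and 10.5, 15.1, 15.4, 8.74 and 6.95 in Helios+. Its change of -0.67 had an SE of 0.29 and was not called (limma adjusted p = 0.1101).

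The hnRNPs coat nascent transcripts and often oppose SR proteins. None of the 18 members with Hnrnp symbols was called by limma without the block. With it 4 were lower: Hnrnpm, Hnrnpd, Hnrnpa2b1 and Hnrnpu, each lower in 5 of 5 pairs. Hnrpll, whose symbol does not match the members' pattern, was called higher and is given below among other splicing regulators. Hnrnpm was measured at 2575, 2837, 2805, 2439 and 2448 in Helios- and at 2318, 2459.8, 2409, 2272 and 2187 in Helios+. The 2 ranges touched only at their edges, as Helios+ replicate 2 exceeded Helios- replicates 4 and 5. The change was -0.17 ± 0.07 (SE), with an adjusted p of 0.0814 in limma and 0.0035 with the block. Hnrnpd, an AU-rich element binding protein also called AUF1, gave 1163, 1122, 1053, 1259 and 1270.0 in Helios- and 1032, 1051, 1011, 1061 and 1160.2 in Helios+ (log2 change -0.14 ± 0.07, adjusted p = 0.1550 in limma and 0.0258 with the block).

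Hnrnpf stood highest of all members per length, at 2031 ± 343 normalized counts per kilobase of annotated exon (SD over 10 libraries). Hnrnpab followed at 850.3 ± 97.9, then Snrpf at 685 ± 110.1, Hnrnpa2b1 at 683 ± 59.6 and Hnrnpk at 630.1 ± 61.6, and the last 3 do not differ beyond their spread. Hnrnpf read 5578, 4991, 8642, 7020.0 and 5607 normalized counts in Helios- and 5514, 6164, 6711, 5833 and 5834 in Helios+, with no difference called (adjusted p = 0.7865, limma). For Hnrnpf, 26.5% of exon bases overlap other genes on the opposite strand, and for Hnrnpab 29.1%. Hnrnpa1, which is known as a very abundant hnRNP, was listed at 25.8, 15.9, 18.6, 15.4 and 20.4 in Helios- and at 14.7, 16.7, 2.56, 18.5 and 9.27 in Helios+. These values come to 5.00 per kilobase. The gene has many near-identical processed copies, and how reads that match several places were counted is not stated in any source used here, which leaves its level uncertain. Its change of -0.79 ± 0.40 was not called (limma adjusted p = 0.1749).

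RBM genes are the largest family, and 4 of the 28 tested were called (14.3%, against 24.8% of all genes). Rbm12, a nuclear protein with several RNA recognition motifs, was measured at 517, 470.0, 472, 435 and 433 in Helios- and at 355, 417, 345, 356 and 343 in Helios+. Every Helios+ value lay below every Helios- value, and Helios+ replicate 2 stood apart from the other 4. Means were 465 ± 34.1 and 363 ± 30.7 (SD, n = 5 each), with a log2 change of -0.36 ± 0.08 (SE) and an adjusted p of 0.0029 in limma. Of its exon bases, 33.1% lie in exons of Cpne1 and Gm28036 on the same strand, so reads there could be counted for another gene. Rbm19, which acts in ribosomal RNA processing, gave 374, 411, 437, 428 and 400.0 in Helios- and 346, 322, 311, 342 and 319 in Helios+. The groups did not overlap. The change was -0.32 ± 0.07 (SE), with an adjusted p of 0.0030 in limma, and 14.6% of its exon bases overlap Gm10390 on the opposite strand.

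Rbm38, a p53 target that binds AU-rich and U-rich elements of mRNAs, was the most abundant of the called Rbm genes. It gave 1183, 1306, 1456, 1495 and 1331 in Helios- and 1076, 1129.9, 1132, 1133 and 997 in Helios+. Again the groups did not overlap, although Helios- replicate 1 came close. The means of 1354 ± 125 and 1093 ± 59.1 (SD, n = 5 each) gave a log2 change of -0.31 ± 0.07 (SE) and an adjusted p of 0.0054 in limma. The calls of Rbm12, Rbm19 and Rbm38 were kept in 10 of 10 fits that left out 1 library, at adjusted p-values of up to 0.0102, 0.0107 and 0.0203.

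Rbm45 had the largest increase. It was measured at 419, 449.8, 374, 349.7 and 373 in Helios- and at 570.0, 659.9, 421, 471 and 435 in Helios+. Replicates 1 and 2 were highest in both populations, the groups overlapped, and Helios+ was higher in 5 of 5 pairs. Means were 393 ± 40.6 and 511 ± 101 (SD, n = 5 each), with a log2 change of 0.36 ± 0.12 (SE). The adjusted p was 0.0340 in limma and 0.0001 with the block. With replicate 3, 4 or 5 of Helios-, or 1 or 2 of Helios+, left out, the adjusted p without the block was between 0.0564 and 0.0887, and the call was kept in the other 5 fits.

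With the block, 8 further RBM genes were lower: Rbm33, Rbm15b, Rbm6, Rbm28, Rbm5, Rbm27, Rbm4 and Rbm25. In that fit 12 of 28 were called (42.9%, against 37.3% of all genes), 1 higher and 11 lower. Of all genes, 18.5% were lower with the block, and whether these shares differ was not tested. Rbm33 gave 3254, 2974, 2259.8, 2486 and 2184 in Helios- and 2325, 2258, 1826, 2108 and 2039 in Helios+. Replicates 1 and 2 were the highest of each population, and every pair was lower in Helios+. The change was -0.31 ± 0.11 (SE), with an adjusted p of 0.0510 in limma and 4.7e-05 with the block. Rbm15b, an adaptor of the m6A methyltransferase, changed by -0.24 (block adjusted p = 0.0038), whereas its relative Rbm15 changed by -0.04 and was not called. Rbm5 and Rbm6, neighbours in the genome that regulate apoptosis genes by splicing, changed by -0.14 and -0.20 (block adjusted p = 0.0241 and 0.0049). Rbm27 passed only narrowly, at a block adjusted p of 0.04997. Of the exon bases of Rbm4, 60.5% lie in Gm21992, an annotated gene on the same strand, and its counts are uncertain. Rbm39, a U2AF-like factor and the Rbm gene with the highest counts, gave 3681, 3152, 2807, 3017 and 3091 in Helios- and 3239, 3081, 2691, 3104 and 2993 in Helios+ (adjusted p = 0.6594 in limma and 0.3401 with the block).

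CELF and MBNL proteins bind GU-rich and UGC-containing elements, and in muscle they are known as antagonists on shared exons. Celf2 was measured at 1341, 1327, 1419.9, 1398 and 1356 in Helios- and at 1571, 1641, 1595, 1565 and 1496 in Helios+. Every Helios+ library lay above every Helios- library. Means were 1368 ± 39.1 and 1574 ± 52.5 (SD, n = 5 each), with a log2 change of 0.20 ± 0.06 (SE) and an adjusted p of 0.0141 in limma. The call was kept in 10 of 10 fits that left out 1 library. It ended when both libraries of replicate 2 (0.0896) or of replicate 4 (0.0545) were left out without the block. Celf1, which also promotes decay of GU-rich mRNAs, gave 1472, 1356, 1279, 1354 and 1346 in Helios- and 1218, 1309, 1168, 1172 and 1196 in Helios+. It was lower in 5 of 5 pairs (log2 change -0.17 ± 0.06, adjusted p = 0.0576 in limma and 0.0086 with the block). The changes of Celf2 and Celf1 thus lay on opposite sides of 0, and with the block both were called.

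Averaged over all 10 libraries, Mbnl1 had the highest count of the members, at 6359, followed by Hnrnpf at 6189, and in Helios- alone Hnrnpf was the higher of the pair. Mbnl1 gave 5788, 6121, 6067, 6092 and 6038 in Helios- and 6086, 6826, 6679.7, 6766 and 7126 in Helios+. It was higher in 5 of 5 pairs, and Helios+ replicate 1 fell among the Helios- values. The change was 0.15 ± 0.06 (SE), with an adjusted p of 0.1047 in limma and 0.0058 with the block. Mbnl2 gave 630.2, 682, 587, 594 and 567 in Helios- and 631, 667, 626, 587 and 615 in Helios+, which overlap fully (log2 change 0.03 ± 0.07, limma adjusted p = 0.7788).

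**Figure D2:**
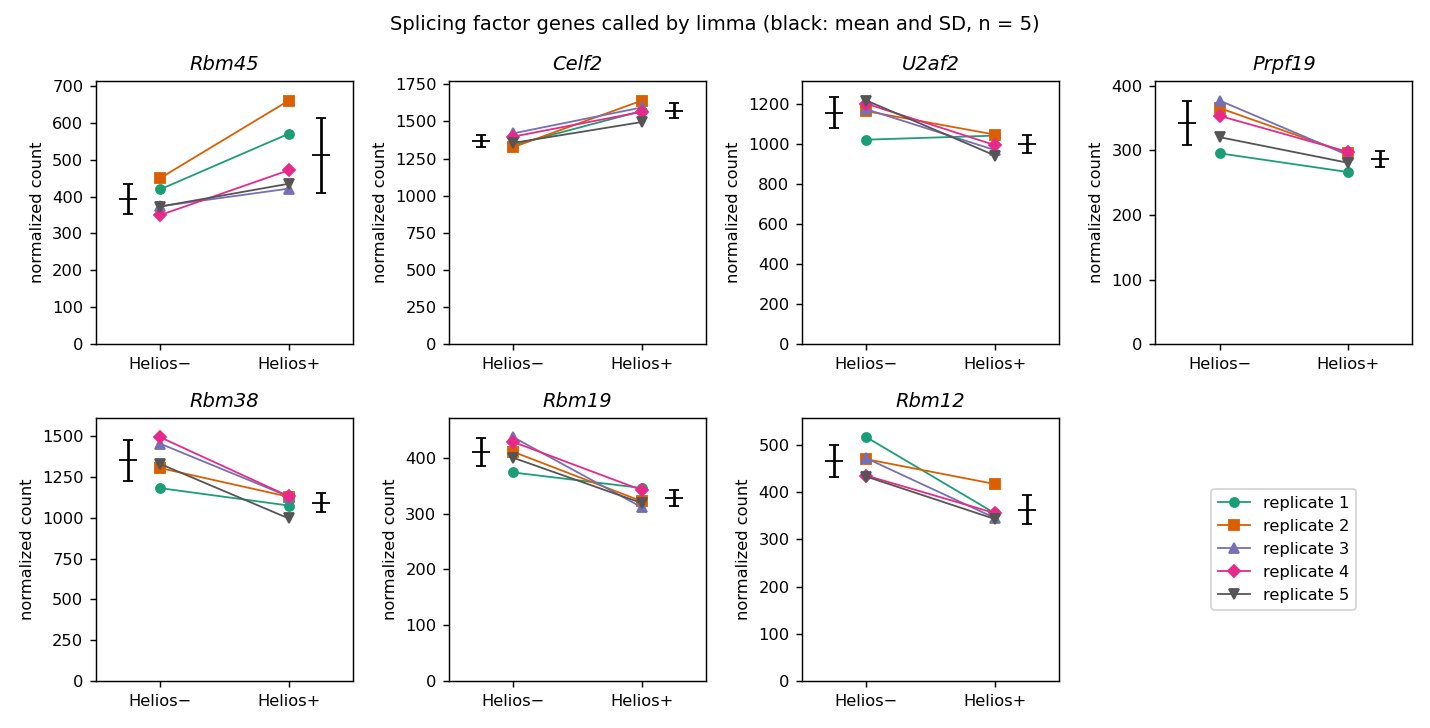
Normalized counts of the 7 called members in each library, with lines that join libraries of the same replicate number and black bars for the mean and SD (n = 5). Celf2 rises in every pair without overlap, Rbm12, Rbm19 and Rbm38 fall without overlap, and U2af2 shows the low Helios- replicate 1.

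The 6 members below the filter were near the limit of detection. Rbm11 gave 0, 0, 1.09, 0.86 and 0.97 in Helios- and 5.24, 2.51, 4.27, 9.71 and 11.6 in Helios+. Celf3 gave 1.17, 0, 2.18, 0 and 0, then 3.14, 1.67, 4.27, 2.91 and 3.48. Rbm24 gave 0, 3.18, 2.18, 5.13 and 3.89, then 0, 0, 0, 0.97 and 0. Rbm11 was thus seen mostly in Helios+ and Rbm24 mostly in Helios-, each from few reads. Celf5, Rbm20 and Rbm44 had means between 0.99 and 5.72 in either population. Without the filter, 4 members were called higher and 7 lower, which adds Celf3 and Rbm11 to the higher genes and Rbm24 and Rbm33 to the lower ones. That is 10.8% of the 102 members, against 22.5% of all 13252 genes. Rbm47 passed the filter at 11.3 ± 7.99 and 9.39 ± 1.62 (SD, n = 5 each), with 24.6 in Helios- replicate 1 alone.

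The promoters of Rbm12, Rbm19, Rbm38 and Rbm45 are shown because these are the called members with a single window among the RefSeq promoters and because Helios belongs to a family known to bind GGGAA. Each window runs from 250 bases before to 50 bases after the annotated start, 5′ to 3′ on the gene's strand (RefSeq, GRCm38.p6). Capitals mark GGGAA and its reverse complement TTCCC.
Rbm12: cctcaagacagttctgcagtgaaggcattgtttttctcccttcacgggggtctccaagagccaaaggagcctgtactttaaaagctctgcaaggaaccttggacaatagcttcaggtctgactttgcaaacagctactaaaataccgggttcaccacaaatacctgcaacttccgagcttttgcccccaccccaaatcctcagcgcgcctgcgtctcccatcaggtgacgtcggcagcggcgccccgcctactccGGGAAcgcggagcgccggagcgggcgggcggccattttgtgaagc
Rbm19: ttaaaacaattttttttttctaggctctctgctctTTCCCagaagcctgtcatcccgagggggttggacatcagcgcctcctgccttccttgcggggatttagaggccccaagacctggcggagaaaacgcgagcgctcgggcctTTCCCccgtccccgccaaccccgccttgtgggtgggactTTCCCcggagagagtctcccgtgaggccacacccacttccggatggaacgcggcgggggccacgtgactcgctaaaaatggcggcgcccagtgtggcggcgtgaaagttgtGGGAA
Rbm38: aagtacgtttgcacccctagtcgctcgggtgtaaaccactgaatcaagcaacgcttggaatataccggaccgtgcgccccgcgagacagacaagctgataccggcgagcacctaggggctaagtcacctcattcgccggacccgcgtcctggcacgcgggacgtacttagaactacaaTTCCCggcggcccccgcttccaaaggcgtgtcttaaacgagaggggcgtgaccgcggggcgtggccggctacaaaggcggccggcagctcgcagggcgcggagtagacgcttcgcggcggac
Rbm45: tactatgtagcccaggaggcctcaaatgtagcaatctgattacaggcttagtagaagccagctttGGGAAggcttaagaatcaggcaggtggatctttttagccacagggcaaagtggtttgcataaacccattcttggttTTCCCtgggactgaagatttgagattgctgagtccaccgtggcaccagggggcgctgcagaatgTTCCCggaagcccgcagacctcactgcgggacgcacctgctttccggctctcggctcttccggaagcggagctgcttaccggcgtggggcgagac

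The window of Rbm12 is chr2:156111916-156112215 on the minus strand and holds 1 match. Rbm19 lies at chr5:120116263-120116562 on the plus strand and holds 4. Rbm38 lies at chr2:173021652-173021951 on the plus strand and holds 1, and Rbm45 at chr2:76369734-76370033 on the plus strand and holds 3. The members called lower and the member called higher thus both carry the letters. On either strand, GGGAA was found in 62.7% of all 32851 promoter windows and in 68.3% of the 126 windows of 88 matched members. Of the 11 windows of the 6 called members with an entry, 10 held it. Several of these windows belong to the same gene and are not independent, and no share by gene was counted. A match of 5 letters is a description of the sequence and not evidence of binding. Windows of the members held a median of 23 CpG dinucleotides, against 7 in all windows.

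Many members varied with the replicate number in both populations. This pattern was noticed in these values and is given as a description. In both populations, replicates 1 and 3 sat at opposite ends of the second principal component of all genes (15.1% of the variance). Of 96 tested members, 81 (84.4%) differed between replicates 1 and 3 in the same direction in both populations, against 73.7% of all genes. Of these, 34 were higher in replicate 1 and 47 in replicate 3. In 14 members (14.6%) replicate 1 was highest and replicate 3 lowest of the 5 in both populations, and in 14 others the order was reversed. For all genes these shares were 5.58% and 5.92%. At a mean of at least 100 normalized counts, 85.1% of 87 members and 78.4% of 6889 genes differed in the same direction. There the shares of the 2 orders were 16.1% and 14.9% of members, against 6.95% and 8.72% of genes.

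The direction differed from family to family, and whether the families differ was not tested. Of all 10718 genes, 3850 were higher in replicate 1 in both populations and 4050 in replicate 3. All 11 Snrp genes and 7 of 8 Sf3 genes were lower in replicate 1 than in replicate 3 in both populations, whereas 7 of 11 Srsf genes were higher in replicate 1 in both. The summed Snrp counts were lowest in replicate 1 and highest in replicate 3, at 2023 and 3146 in Helios- and at 2336 and 2782 in Helios+. The summed Srsf counts ran the other way, at 11613 and 7878 in Helios- and at 9538 and 8114 in Helios+. Sf3b1 was the exception in its class, being higher in replicate 1 by 0.73 and 0.29 on the log2 scale. Other families were split, with 12 Rbm genes higher in replicate 1 and 8 in replicate 3 in both populations, 6 and 6 Prpf genes, and 5 and 10 Hnrnp genes.

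Srsf5, an SR protein, was among the members that differed most between these replicates. It gave 2264, 1464, 945, 1472 and 1499 in Helios- and 1613, 1075, 949, 1294 and 1303 in Helios+, a range of 2.40 times over all libraries. Its change between the populations was -0.26 ± 0.20 (SE), with an adjusted p of 0.4006 in limma and 0.0017 with the block. Hnrnph1, a binder of G-rich elements, gave 2232, 1511, 879, 1372 and 1138 in Helios- and 1855, 1454, 1196, 1538 and 1270.3 in Helios+. The replicates kept nearly the same order, yet the populations did not differ by either fit (adjusted p = 0.8115 in limma and 0.4411 with the block). Prpf39, a U1-associated protein, gave 1047, 705, 447, 735 and 629 in Helios- and 708, 542, 482, 646 and 548 in Helios+ (log2 change -0.24 ± 0.18, adjusted p = 0.3886 in limma and 0.0137 with the block). Rbm25, a regulator of apoptotic isoforms, gave 4113, 3277, 2252, 2857 and 2874 in Helios- and 3198, 2781, 2209, 2855 and 2724 in Helios+. It was lower in 5 of 5 pairs, though replicates 3 and 4 hardly differed, and was called only with the block (adjusted p = 0.0335, limma).

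**Figure D3:**
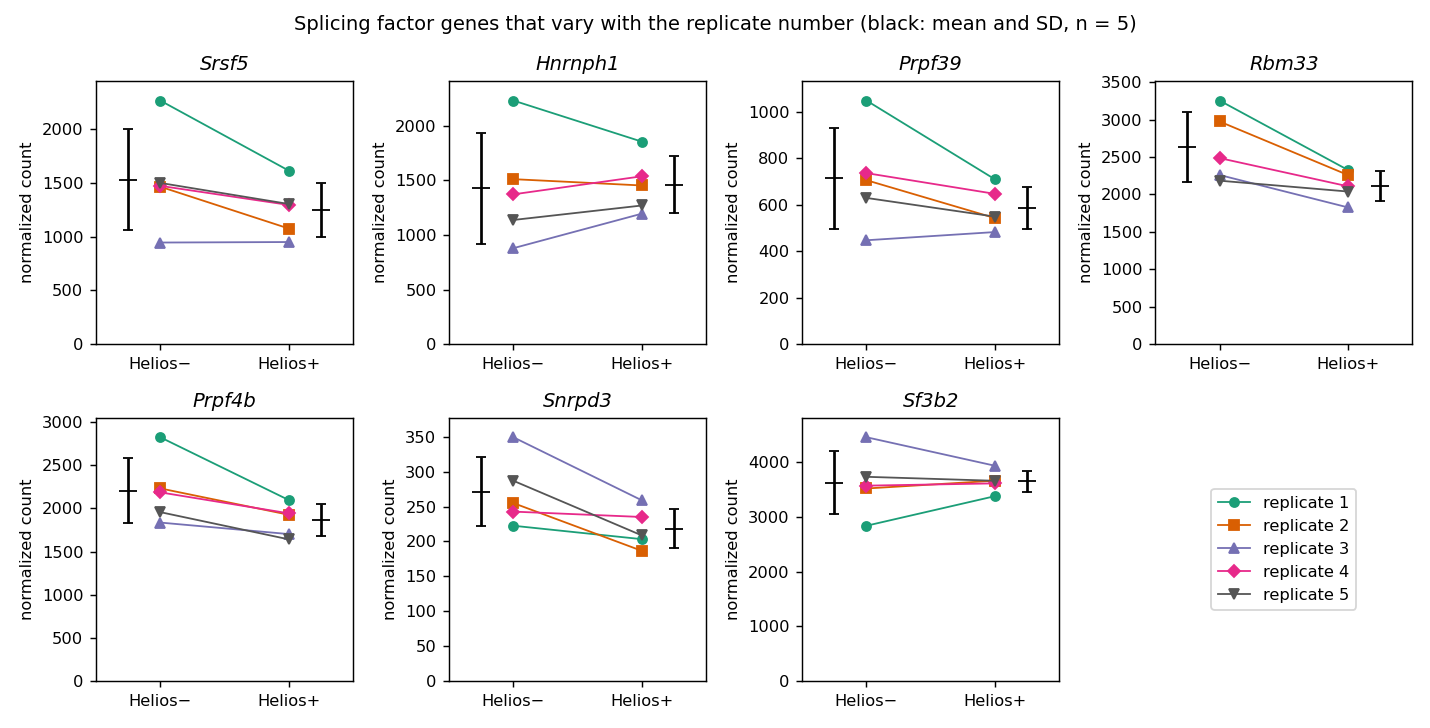
Normalized counts of 7 members by library, with lines that join libraries of the same replicate number and black bars for the mean and SD (n = 5). In Srsf5, Hnrnph1 and Prpf39 replicate 1 is highest and replicate 3 lowest in both populations, and in Sf3b2 the order of these replicates is reversed.

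Nuclear noncoding RNAs varied in the same libraries. Malat1, a nuclear-retained RNA, read 207858 in Helios- replicate 1 and 95930 in Helios- replicate 3, and 125727 and 76491 in the same replicates of Helios+. Neat1, which builds nuclear paraspeckles, read 1441 and 342 in Helios-, and 927 and 385 in Helios+. For Malat1 and Neat1 replicate 1 was the highest and replicate 3 the lowest library of each population. The same held for Kcnq1ot1, an antisense nuclear RNA, which read 6233 and 3543 in Helios-, and 5323 and 3820.1 in Helios+. Malat1 was lower in Helios+ in 5 of 5 pairs (log2 change -0.40 ± 0.19, adjusted p = 0.1444 in limma and 1.1e-05 with the block). Neat1 and Kcnq1ot1 were called by neither fit, with changes of -0.19 and 0.03 and block adjusted p-values of 0.0956 and 0.6611 (limma). Rn45s took 8.54% of reads in Helios- replicate 1 and 18.6% in Helios- replicate 3. The part of nuclear or ribosomal RNA content in the levels of the members was not tested. Of the 22 members called only with the block, 16 were higher in replicate 1 in both populations and 6 in replicate 3. Of all 10718 tested genes it was 3850 and 4050. The split among the 1346 genes of the whole table called only with the block was not counted, so no background for the 22 is at hand.

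Spread also differed between the populations. In 76 of 96 members (79.2%) the SD of the log2 values was larger among the Helios- libraries, against 67.2% of all genes, with median SDs of 0.18 and 0.12. In the Hnrnp class this held for 17 of 18 genes. At a mean of at least 100 normalized counts it held for 81.6% of 87 members and 70.6% of 6889 genes.

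**Figure D4:**
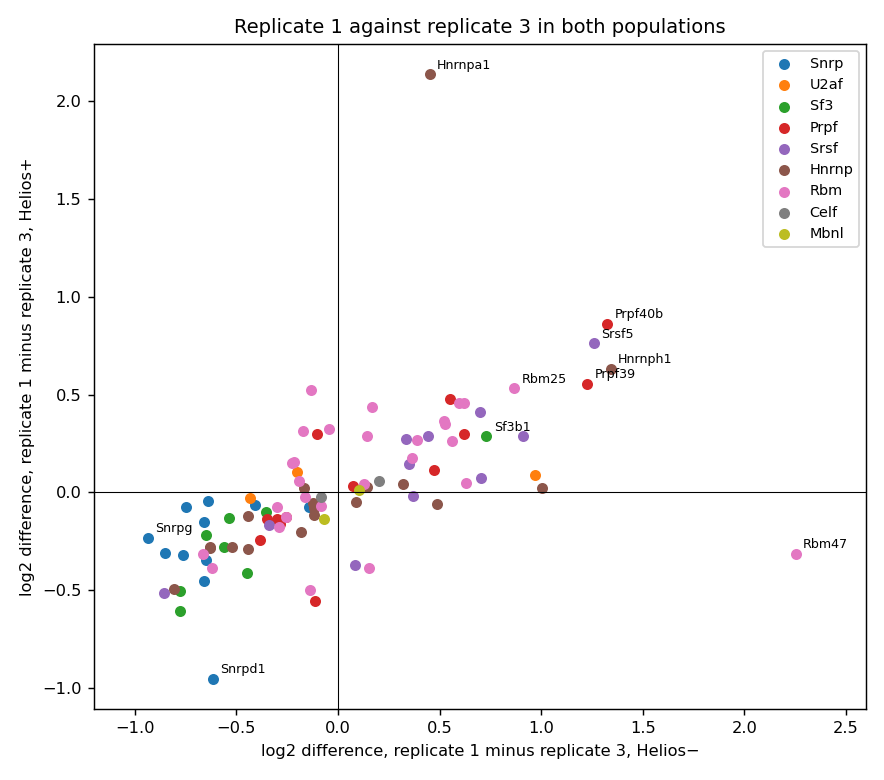
Log2 difference between replicate 1 and replicate 3 for each tested member, in Helios- (horizontal axis) and in Helios+ (vertical axis), coloured by family. Most of the 96 points lie in the lower left (47) or upper right (34) quadrant, with the Snrp genes on the left and Srsf5, Hnrnph1 and Prpf39 on the right.

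Other genes of RNA processing gave the setting for the members. Of 219 such genes in lists of SR-related factors, kinases, spliceosome components, decay factors and others, 197 were tested, and 9 were higher and 12 lower in Helios+, or 10.7%, against 24.8% of all genes (limma). With the block the counts were 14 and 43, or 28.9%, against 37.3%. Some changes here exceeded that of any called member. Srpk1, a kinase that phosphorylates SR proteins, was lower in Helios+ without overlap, at 1629 ± 174 and 978 ± 113 normalized counts (log2 change -0.74 ± 0.09 SE, adjusted p = 1.4e-05, limma). Gemin8, a subunit of the SMN complex that loads Sm proteins onto snRNAs, was higher without overlap, at 15.8 ± 5.30 and 64.1 ± 14.6 (log2 change 1.98 ± 0.25, adjusted p = 1.9e-05). None of the 11 Snrp genes was called beside it in that fit, Snrpd3 being lower with the block. Nor was any of the other kinases, among them Clk3 (log2 change -0.17 ± 0.11, adjusted p = 0.3242, limma).

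The remaining lists held smaller changes. SR-related Srek1ip1 was higher (log2 change 0.64) and Luc7l lower (-0.30). In the catalytic spliceosome Snw1 (0.26) and Zmat5 (0.49) were higher, and Dhx16 (-0.22) and Cwc22 (-0.19) were lower. Among other splicing regulators Fubp1 was lower (-0.37), and Fubp3 (0.35) and Hnrpll (0.33), the CD45 exon silencing factor of T cells, were higher. Ddx46 at the branch point (-0.30), Smg5 of nonsense-mediated decay (-0.32), Cpsf6 (-0.26) and Wdr33 (-0.19) of 3′ end formation, and Wtap of the m6A writer (-0.21) were lower. Of 12 LSm genes none was called, and Lsm11 was lower with the block (-0.31). Lsm5 (-0.49), Prmt5 of the SMN list (-0.14), Cherp (-0.18), Upf3b (0.47) and Fto (-0.13) were not called by limma without the block, and Upf3b was higher and Cherp lower with it. mRNA decay regulators had 3 higher, namely Zfp36l1 (0.93), Zc3h12d (0.63) and Pabpc4 (0.40), and 2 lower, Arid5a (-0.47) and Zfp36 (-0.34), of 22 tested, a share of 22.7% that is near that of all genes. The other genes of these lists named here were each called by limma without the block.

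**Figure D5:**
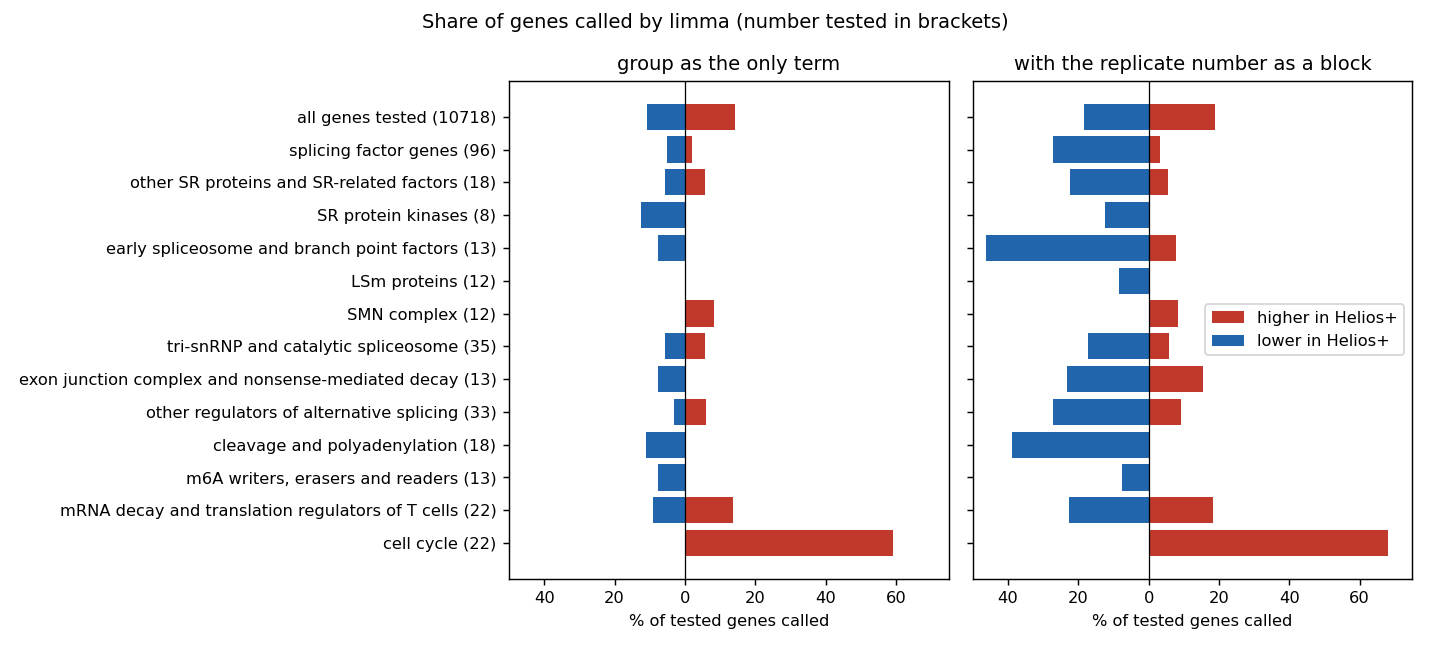
Percent of tested genes called higher (red, right) or lower (blue, left) in Helios+ for all genes, the splicing factor genes and each other list, without (left panel) and with (right panel) the replicate block, with the number tested in brackets. The splicing factor genes go from 2 higher and 5 lower to 3 higher and 26 lower of 96 (8 and 17 under quantile normalization with the block), while 13 of 22 cell cycle genes are already called higher without the block.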

How the data were processed

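Total RNA from 10 sorted Treg libraries, 5 per population, was analysed. Libraries were prepared with a stranded total RNA kit, per the labels' protocols. HISAT2 version 2.0.4, HTSeq, DESeq2 and the build mm10 are named in the submitters' processing notes, without the role of each. No source used here gives the annotation or the strand setting of the counting. The deposited values are a signal, namely gene counts that the authors divided by library size factors (normalized counts). Whole reads were recovered from them for 100.0% of values (tolerance 0.001), with 4872348 to 6948692 reads per library, so low genes are the least precise.

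limma 3.58.1 (R 4.3.3) was fitted to log2(normalized count + 1) with trend and robust estimation for all 10718 genes with a mean of at least 10. Tests were two-sided, with Benjamini-Hochberg adjustment over all of them. A fold change on this scale understates the change of low genes. On the recovered reads, edgeR 4.0.16 called 1563 genes higher and 1080 lower, and DESeq2 1.42.0 called 1594 and 1252. Only the limma fit without the block was tested on simulated data, which had the same dispersion for every gene and no variation shared by replicates. The fits with the block, edgeR, DESeq2 and the other scalings were not tested in this way.

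Same-numbered libraries deviated together (r of the deviations from the group means of 0.48, 0.19, 0.39, 0.16 and 0.15 for replicates 1 to 5, against a median of -0.03 for other numbers). The highest r with another number was 0.10, -0.0008, 0.12, 0.10 and 0.12 for the same replicates. The pairing is thus least certain for replicates 4 and 5, and it was inferred from the same data. The labels give only the number, and from this check equal numbers were taken as pairs.

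Values were printed in full for the 3 tested members with the smallest p and the member with the highest mean count of each family. Rbm45, Rbm33, Srsf5, Hnrnph1, Prpf39, Rbm25 and the members below the filter were added after their values were seen. For each other RNA-processing list, the 2 genes with the smallest p were named, as was the gene with the highest counts of each marker list. Members and lists were chosen with earlier results of these data known. Exon lengths, overlaps and positions came from GENCODE M21 (GRCm38), which matched 102 members, 1 of them by an older symbol. Alternatives were other tests, scalings, filters and pseudocounts (0.25 and 4), the replicate block, and leaving out libraries.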

Additional observations from a re-analysis of the deposited data

Results flagged for a closer look

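Of 62 groups of 5 libraries checked for a library that stands apart by Dixon's criterion, 3 met it, and chance alone flags about 1 in 20 groups. Mbnl1 in Helios- had its lowest value, 5788 normalized counts, in replicate 1, below the next at 6038. Rbm12 in Helios+ had its highest value, 417, in replicate 2, above the next at 356. U2af2 in Helios- had its lowest value, 1020.3, in replicate 1, below the next at 1162. Without Helios- replicate 1 the change of U2af2 was called at an adjusted p of 0.0039 (limma), and without Helios+ replicate 2 that of Rbm12 at 0.0013. Mbnl1 without Helios- replicate 1 had an adjusted p of 0.1251 and was not called.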

How the results depend on the processing

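No called change reversed under any alternative run, and the change of Ikzf2 was 4.42 on the log2 scale with and without pairing, with an exact p of 0.0625 within pairs, the smallest that 5 pairs allow. Of the 96 tested members, 2 were called higher and 5 lower. The higher count was 4 with no filter, and it ranged from 1 to 2 with 1 library left out. It was 1, 0, 0 and 1 without both libraries of replicates 1, 2, 4 and 5. The lower count was 8 with DESeq2, 3 without both libraries of replicate 2 or 4, and 3 (without Helios- replicate 2 or 4 or Helios+ replicate 5) to 10 (without Helios- replicate 3) with 1 library left out. In either direction DESeq2 called 11.5% of members and 26.6% of all genes. With 1 library left out, 4.17% to 11.5% of members were called, against 21.0% to 27.2% of all genes. Without both libraries of a replicate the shares were 3.13% to 8.42% and 18.0% to 24.8%.

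With the replicate block the lower count was 26, or 18, 16, 24 and 17 with edgeR, DESeq2, TMM and quantile normalization, and 23, 16, 26, 20 and 21 without pairs 1 to 5. The higher count with the block was 3, but 8 with quantile normalization, a split of 8 higher and 17 lower, and 4 without pair 1. The block ended no member's call. Other RNA-processing genes went with the block from 9 higher and 12 lower to 14 and 43. Under block and edgeR, DESeq2, TMM and quantile normalization, 36, 19, 40 and 26 were lower, and 39, 25, 39, 27 and 28 without pairs 1 to 5. Higher were 14 with edgeR or TMM, 20 with quantile normalization, and 16 and 14 without pairs 1 and 3. Without the block 4, 6 and 5 were lower without both libraries of replicates 2, 4 and 5, and 5 to 17 with 1 library left out. All genes called rose from 2655 to 4000 with the block, and to 4104 with quantile normalization added. Fits that combine the block with another choice were chosen after seeing the data, and the cause of these differences was not tested. Depth limits the 6 members below the filter. The protein description that had been planned was not run.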
